A study of Mus musculus with 2 samples.

Results

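The genes described here are those of the mouse major histocompatibility complex (MHC) and of antigen presentation, in livers of western diet-fed mice that did or did not lack Lpcat3 in hepatocytes. They were chosen by gene symbol, with earlier results of these data known. Shares over all genes are therefore given beside the counts for scale and not as a test. Taken were all probe sets annotated with a symbol that starts with H2-, or with B2m, Tap1, Tap2, Tapbp, Cd74, Ciita, Cd1d1, Nlrc5, Erap1, Rfx5, Cd80, Cd86 or Cd40. Of 45101 probe sets, 74 carried 1 such symbol and named 36 of the 18193 genes on the array. A further 15 probe sets carried several symbols, at least 1 of them a chosen one, and are given by value without a gene. Class I and class II genes are reported apart. The question was whether class I and class II transcripts differed between the Albumin-Cre pool and the floxed control pool on a western diet.

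Both pools came from male mice, 16 weeks of age at collection, that were given a western diet for 9 weeks from an age of 7 weeks and fasted for 6 hr. All mice were homozygous for the floxed Lpcat3 allele. Control mice (Lpcat3fl/fl) had no Cre, whereas those called L-Lpcat3 KO also carried Albumin-Cre. The albumin promoter drives Cre in hepatocytes. The study holds it likely that cells without this Cre, of which it names Kupffer and endothelial cells, still expressed Lpcat3. Liver RNA of 5 mice per genotype was pooled and hybridised to 1 Affymetrix 430 2.0 array per pool. No difference thus has a replicate check on the arrays, and no p-value is given. The study also measured selected lipid and inflammation genes by real-time PCR in western diet livers, and those values are not used here. Signals are linear MAS5 values that the authors' software scaled to a trimmed mean of 500 on each array. Signals below the median of all values, 86.6, were raised to that floor before a log2 ratio of the knockout to the control pool was taken, and a gene was called at 2-fold. A ratio with 1 pool below the floor is only a bound. Probe sets of the same gene differed with a pooled SD of 0.29 in log2 ratio over 4476 genes, which measures the spread of probes and not of mice. Lpcat3, the targeted gene, had a signal of 5173 in the control pool and 2198 in the L-Lpcat3 KO pool (log2 ratio -1.23), with 1 probe set, and whether it lies inside the floxed segment was not tested. Hepatocyte transcripts were abundant in both pools, with Alb (albumin) at 32117 in the control and 33219 in the L-Lpcat3 KO pool.

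MHC class I molecules present peptides from inside a cell to CD8+ T cells and are made of a polymorphic heavy chain and β2-microglobulin. Almost all nucleated cells carry them, hepatocytes included. MHC class II molecules are dimers of an α and a β chain that present peptides from the endocytic route to CD4+ T cells, and they are carried mainly by dendritic cells, B cells and macrophages, in the liver also by Kupffer cells and sinusoidal endothelium. Class II genes are switched on through CIITA, a co-activator that docks on proteins bound to the X and Y boxes of their promoters, whereas classical class I promoters also carry NF-kB and interferon response elements.

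The promoters of both classes are shown because the 2 classes gave different counts of calls. Whether promoter elements bear on that difference was not tested. The 4 sequences are RefSeq sequence of the 250 bases before the start of each gene in build GRCm38.p6, read 5′ to 3′ on the strand of the gene. H2-Eb1 is the class II chain with the highest representative ratio, H2-Aa the class II chain with the highest signal, and H2-K1 and H2-D1 are the classical class I heavy chains. Capitals mark the X box core GCAACNNAT, the Y box core GATTGG, the NF-kB site GGGATTCCC and the interferon response core TTTCACTT, searched on both strands. The promoter of H2-Eb1 was taken by a rule that itself used the values, a class II gene past 2-fold with its sequence held. The motifs and the other promoters were chosen after the values were seen.
H2-Eb1, chr17:34305617-34305866, plus strand: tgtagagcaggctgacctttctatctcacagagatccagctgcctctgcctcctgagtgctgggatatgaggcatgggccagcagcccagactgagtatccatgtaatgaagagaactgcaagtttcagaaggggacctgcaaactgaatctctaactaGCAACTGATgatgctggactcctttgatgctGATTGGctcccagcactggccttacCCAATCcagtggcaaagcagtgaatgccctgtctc
H2-Aa, chr17:34287824-34288073, minus strand: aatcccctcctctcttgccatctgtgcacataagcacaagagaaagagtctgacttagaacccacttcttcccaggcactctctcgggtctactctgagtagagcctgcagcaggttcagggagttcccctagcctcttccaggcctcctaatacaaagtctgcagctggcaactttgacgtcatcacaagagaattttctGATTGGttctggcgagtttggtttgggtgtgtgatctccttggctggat
H2-K1, chr17:34000348-34000597, minus strand: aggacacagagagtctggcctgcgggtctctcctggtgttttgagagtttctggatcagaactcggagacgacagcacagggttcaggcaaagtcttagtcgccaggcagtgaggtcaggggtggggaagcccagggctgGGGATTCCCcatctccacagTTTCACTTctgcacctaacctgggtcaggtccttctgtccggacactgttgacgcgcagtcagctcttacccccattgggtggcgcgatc
H2-D1, chr17:35262844-35263093, plus strand: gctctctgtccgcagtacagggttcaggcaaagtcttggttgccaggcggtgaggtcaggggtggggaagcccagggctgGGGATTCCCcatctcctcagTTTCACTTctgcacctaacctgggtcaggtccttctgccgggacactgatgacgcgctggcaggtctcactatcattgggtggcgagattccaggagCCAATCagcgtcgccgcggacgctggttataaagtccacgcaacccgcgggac

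The H2-Eb1 window held 1 X box core followed by 2 matches to the Y box core, 1 on each strand. The H2-Aa window held 1 Y box core and no X box core as spelled here. H2-K1 and H2-D1 shared the NF-kB site and the interferon core, 1 match each per window, and H2-D1 also held 1 Y box core. The shared sites lay 101 and 82 bases before the start in H2-K1, but 161 and 142 in H2-D1. The H2-K1 window ends before the stretch that holds the Y box core in H2-D1, 47 bases before its start. Their Y box counts are therefore not comparable. Matches of different motifs did not overlap in these windows. Among 32851 RefSeq promoters of the same length, 1.48% held the X box core, 14.6% the Y box core and 0.374% both, while 0.301% held the NF-kB site and 1.36% the interferon core. Of 8 class II chain promoters in that table (with H2-DMb1), 3 held the X box core (H2-Eb1, H2-Eb2 and H2-Ob), 7 the Y box core, and neither of the other 2 motifs was found. Of 8 class I heavy chain promoters, none held the X box core as spelled here, 3 held the Y box core, 2 the NF-kB site and 5 the interferon core. A match is a description of letters and no evidence of binding.

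The class II transcripts H2-Eb1, Cd74 and H2-Ab1 rose in the L-Lpcat3 KO pool. Of the 10 class II genes (the α and β chains of both classical and non-classical molecules, with the invariant chain Cd74), 8 were measured on at least 1 array, these 3 were at least 2-fold higher and 0 were called lower. Among all 12290 measured genes the same call was met by 2.70% in the higher and 0.700% in the lower direction. Their median log2 ratio was 0.72 over all 10 genes and 0.85 over the 8 measured, beside 0 over all genes and 0.01 over all measured genes. Some class II genes stand in a panel of immune genes that the study shows from these same arrays, so their direction here is no independent evidence.

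H2-Eb1, the β chain of I-E, had a signal of 1131 in the control pool and 3439 in the L-Lpcat3 KO pool, a 3.04-fold difference (log2 ratio 1.60). Cd74, the invariant chain that fills the class II groove until the peptide is loaded, had a signal of 1102 in the control and 3153 in the L-Lpcat3 KO pool, 2.86-fold higher (log2 ratio 1.52). Each of these genes had 1 probe set, and the L-Lpcat3 KO signal was the higher in both. Relative to all probe sets of an array, H2-Eb1 moved from the 86.8th to the 94.7th percentile and Cd74 from the 86.6th to the 94.3rd.

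H2-Ab1, the β chain of I-A, was measured by 3 probe sets. The brightest gave 865 in the control and 1769 in the L-Lpcat3 KO pool (2.04-fold, log2 ratio 1.03), and the others gave 414 against 1019 (log2 ratio 1.30) and 224 against 520 (log2 ratio 1.21). All 3 passed 2-fold. H2-Aa, the α chain of I-A and the partner of H2-Ab1, had the brightest class II signal, 3324 in the control and 6250 in the L-Lpcat3 KO pool, which at 1.88-fold (log2 ratio 0.91) stayed under the call. Its other 3 probe sets gave 1740 against 4473, 336 against 1336 and 97.0 against 316, with log2 ratios of 1.36, 1.99 and 1.71. Thus the probe set that stood for H2-Aa had the lowest ratio of the 4, and the other 3 passed 2-fold. All 4 are of a design that can match more than 1 transcript.

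**Figure D1:**
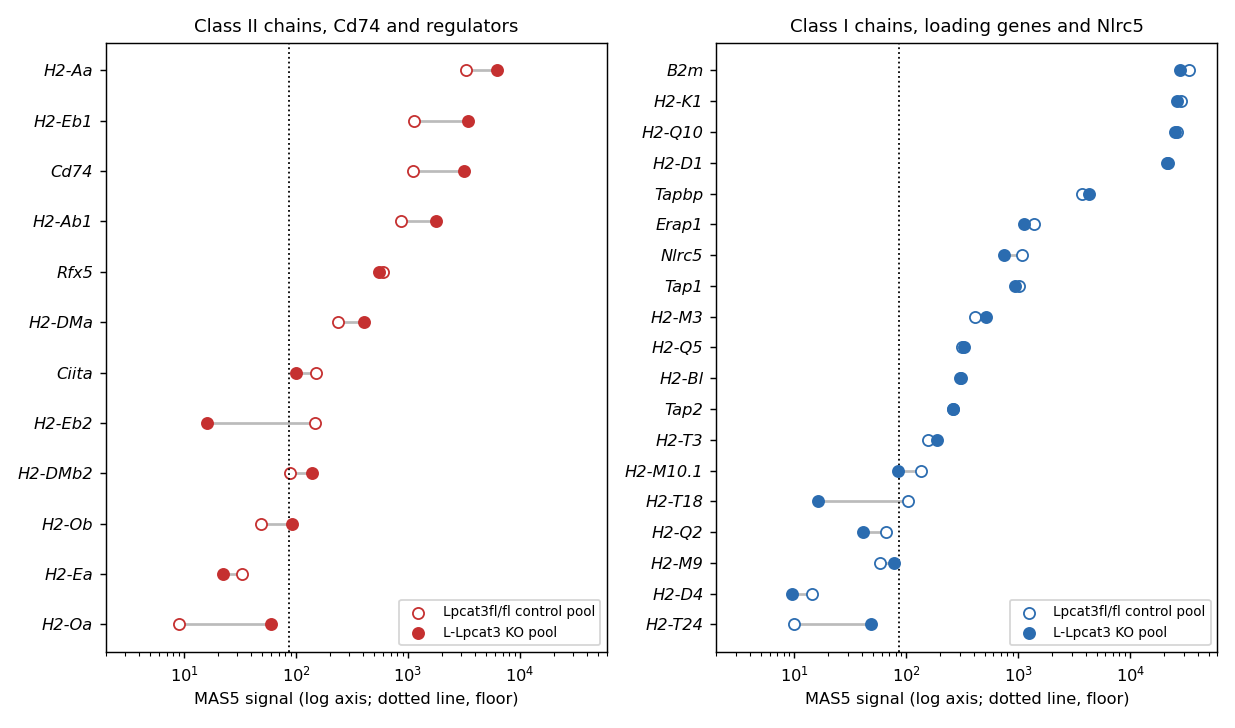
MAS5 signal (log axis) of each gene in the control pool (open circles) and the L-Lpcat3 KO pool (filled circles), 1 array each, for class II genes and their regulators (left) and for class I chains, loading genes and Nlrc5 (right), with the floor of 86.6 as a dotted line. Signals are plotted without the floor. H2-Eb1, Cd74, H2-Ab1 and H2-Aa lie to the right in the knockout pool, for example H2-Eb1 at 3439 against 1131. H2-Eb2 (16.0 against 147) and Ciita (99.7 against 152) lie to the left. Class I genes above the floor in both pools lie within 1.5-fold, and some below it in a pool lie further apart, such as H2-T18 (16.3 against 103).

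The peptide-exchange molecules of class II showed smaller or weakly measured differences. H2-DMa, the α chain of the DM molecule that removes the invariant chain peptide, had signals of 235 in the control and 403 in the L-Lpcat3 KO pool (1.72-fold, log2 ratio 0.78), but a dimmer probe set gave 126 and 129 (log2 ratio 0.03). H2-DMb2, a DM β chain, gave 88 and 138 with its representative probe set (log2 ratio 0.66). Its other 2 probe sets were below the floor in the control pool, at 22.8 and 37.9, and reached 254 and 227 in the L-Lpcat3 KO pool, at least 2.94-fold and at least 2.62-fold higher. Another 2 probe sets match H2-DMb1 as well as H2-DMb2 and gave 117 against 198 and 156 against 237 (log2 ratios 0.76 and 0.60). All 5 probe sets for DM β chains were thus higher in the L-Lpcat3 KO pool, 2 of them past 2-fold.

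The remaining class II chains were near or below the floor. H2-Ob, a chain of the DO molecule that holds DM in check, had signals of 49.1 in the control and 92.4 in the L-Lpcat3 KO pool, at least 1.07-fold higher, and H2-Oa, its partner, was below the floor on both arrays (9.05 and 59.3). H2-Eb2, a further β chain gene, was the only class II gene with a ratio below 0, at 147 in the control and 16.0 in the L-Lpcat3 KO pool, at least 1.69-fold lower. H2-Ea, the α chain of I-E, is not transcribed in mice of the C57BL/6 haplotype, from which these animals derive, and all 3 of its probe sets were below the floor, with signals between 2.72 and 33.0. The I-E β chain H2-Eb1 was therefore measured in both pools without a measurable transcript of its α partner.

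Counted by probe set, 16 of 20 class II probe sets were measured on at least 1 array, and 10 were at least 2-fold higher in the L-Lpcat3 KO pool, 2 of them as bounds. None was called lower. Among all 24356 measured probe sets, 2.26% were 2-fold higher and 0.784% were 2-fold lower. The median log2 ratio of all 20 was 0.97.

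**Figure D2:**
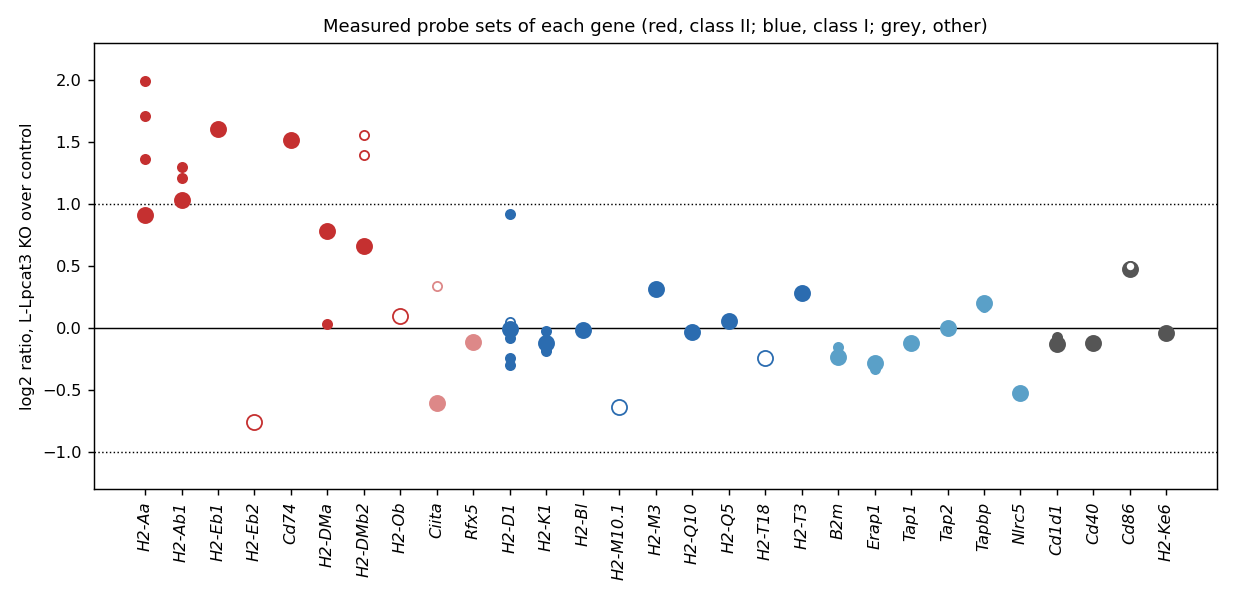
Log2 ratio of the knockout to the control pool (y axis) for every measured probe set with 1 gene symbol, by gene (x axis), with class II in red, class I in blue and other genes in grey. Large circles represent the gene, open circles are bounds with 1 pool below the floor, and dotted lines mark 2-fold; 10 class II probe sets lie on or past the upper line and no class I probe set does, the highest of class I being 0.92.

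The class I heavy chains gave no call. Of 13 class I heavy chain genes, 9 were measured on at least 1 array, and none was called higher or lower, beside 2.70% and 0.700% of all measured genes. All 7 that were measured on both arrays lay within 1.5-fold, and for the other 2, H2-M10.1 and H2-T18, the size of the difference has only a lower bound. The median log2 ratio was 0 over all 13 genes and -0.02 over the 9 measured, so the class II median exceeded the class I median by 0.72 over all genes of each class. With 1 array per pool that difference has no test.

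The classical heavy chains were among the brightest transcripts on the arrays. H2-K1 had a signal of 28559 in the control and 26167 in the L-Lpcat3 KO pool (log2 ratio -0.13), and its 4 probe sets spanned log2 ratios of -0.19 to -0.02. H2-D1 had a signal of 21522 in the control and 21325 in the L-Lpcat3 KO pool (log2 ratio -0.01). In the control pool they stood at the 99.8th and the 99.5th percentile of all probe sets. H2-D1 had 9 probe sets, 8 of them measured, and these spanned -0.30 to 0.92. The probe set at 0.92 was dim, with a signal of 143 in the control and 270 in the L-Lpcat3 KO pool, and the 3 brightest gave log2 ratios of -0.01, 0.02 and -0.24. The 4 probe sets of H2-K1 and the 3 brightest of H2-D1 are of a design that can match more than 1 transcript. H2-Q10, a non-classical heavy chain that the liver secretes, had a signal of 25906 in the control and 25275 in the L-Lpcat3 KO pool (log2 ratio -0.04). The signs of H2-D1 and H2-Q10 turned under other scalings, with ratios of up to 0.08 and 0.10. Genes this bright seldom differed: of 480 genes with a geometric mean signal of at least 10000, 0.625% differed 2-fold in either direction. In the range of 200 to 5000, where H2-Aa, H2-Eb1, Cd74, H2-Ab1 and H2-DMa lay, 2.36% of 8034 genes were 2-fold higher.

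The other non-classical heavy chains were dimmer, and those measured on both arrays lay within 1.5-fold. H2-M3, which presents N-formylated peptides, had signals of 413 in the control and 512 in the L-Lpcat3 KO pool (log2 ratio 0.31), the highest ratio among class I genes. H2-T3, a ligand of CD8αα, had signals of 157 and 190 (log2 ratio 0.28). H2-Bl gave 306 and 303 (log2 ratio -0.02), and H2-Q5 gave 312 and 325 (log2 ratio 0.06). For H2-M10.1 and H2-T18 the L-Lpcat3 KO signal was below the floor, at 84.9 and 16.3, against 135 and 103 in the control pool, at least 1.56-fold and at least 1.18-fold lower. H2-D4, H2-M9, H2-Q2 and H2-T24 were below the floor on both arrays.

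**Figure D3:**
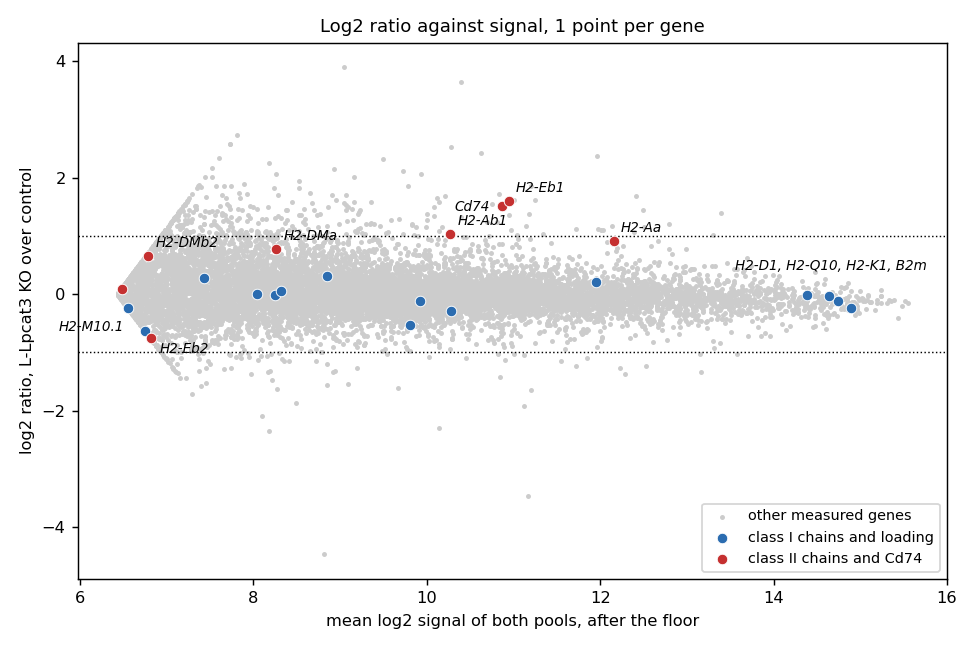
Log2 ratio of the knockout to the control pool (y axis) against the mean log2 signal of both pools after the floor (x axis) for all measured genes (grey), with class I chains, loading genes and Nlrc5 in blue and class II chains with Cd74 in red. Dotted lines mark 2-fold: H2-Eb1 (1.60), Cd74 (1.52) and H2-Ab1 (1.03) lie above the upper line, and the bright class I genes lie near 0.

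The genes that build and load class I molecules had ratios near or below 0. B2m, the light chain, was the brightest gene of the whole group, with 33091 in the control and 28038 in the L-Lpcat3 KO pool (log2 ratio -0.24; second probe set -0.16). Tap1 and Tap2, the peptide transporter of the endoplasmic reticulum, gave 1009 against 926 (log2 ratio -0.12) and 263 against 262 (log2 ratio -0.00, with a sign that turned under other scaling). Tapbp (tapasin), which bridges that transporter to the heavy chain, gave 3704 against 4255 (log2 ratio 0.20). Erap1, which trims peptides to length, gave 1369 against 1124 (log2 ratio -0.28). Nlrc5, the class I counterpart of CIITA, gave 1075 in the control and 746 in the L-Lpcat3 KO pool (log2 ratio -0.53), the lowest ratio of these 6 genes. All 6 lay within 1.5-fold, with a median log2 ratio of -0.18, and 5 of the 6 had ratios below 0. Among all 12290 measured genes, 5994 had ratios below 0. With quantile normalization B2m was at -0.13.

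The transcript of the class II co-activator itself was dim and its probe sets disagreed. Ciita had signals of 152 in the control and 99.7 in the L-Lpcat3 KO pool with its representative probe set (log2 ratio -0.61). A second probe set gave 16.7 and 110, at least 1.27-fold higher, and the third was below the floor in both pools. No direction can be given for Ciita from these values. Rfx5, a subunit of the factor that binds the X box, had 592 in the control and 546 in the L-Lpcat3 KO pool (log2 ratio -0.12).

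Lipid presentation and costimulation genes gave no call. Cd1d1, which presents lipids to NKT cells, gave 14570 in the control and 13291 in the L-Lpcat3 KO pool (log2 ratio -0.13; second probe set -0.08). Cd86, a ligand of CD28, gave 115 and 160 (log2 ratio 0.48), and its second probe set 41.7 and 123, at least 1.42-fold higher. Cd40, the receptor of CD40 ligand on antigen-presenting cells, gave 140 and 129 (log2 ratio -0.12). All 4 probe sets of Cd80, the other CD28 ligand, were below the floor in both pools. H2-Ke6, a gene that carries an H2 symbol for its place in the MHC but belongs to neither class, gave 2561 and 2484 (log2 ratio -0.04).

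Of the 15 probe sets with several symbols, 11 were measured. Beside the 2 for DM β chains described above, the other 9 all stand for class I heavy chains. Among the bright ones, the probe set of H2-T23 and H2-T-ps gave 11305 in the control and 9628 in the L-Lpcat3 KO pool (log2 ratio -0.23), that of H2-K1 and H2-D1 6223 against 7079 (log2 ratio 0.19), and that of H2-Q7 and H2-Q9 5050 against 3472 (log2 ratio -0.54). That of H2-Q5 and H2-K1 gave 172 in the control and 15.3, below the floor, in the L-Lpcat3 KO pool, at least 1.98-fold lower. That bound is set by the floor and does not show whether the difference reached 2-fold. None of the other measured ones passed 2-fold in either direction.

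Class II genes and class I loading genes lie interleaved on chromosome 17, which sets the ratios of neighbours side by side. From H2-K1 to H2-Eb2, RefSeq lists 28 genes, of which 19 were on the array and 17 were measured. The 2 genes past 2-fold were H2-Ab1 and H2-Eb1. Psmb9, Tap1, Psmb8 and Tap2, which serve class I, lie between H2-DMb2 and H2-Ob and had log2 ratios between -0.20 and 0.03. The 6 measured genes of the interval other than the H2 genes, Tap1 and Tap2 (Ring1, Slc39a7, Rxrb, Brd2, Psmb9 and Psmb8) had a median log2 ratio of 0.08, with a range of -0.20 to 0.33.

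**Figure D4:**
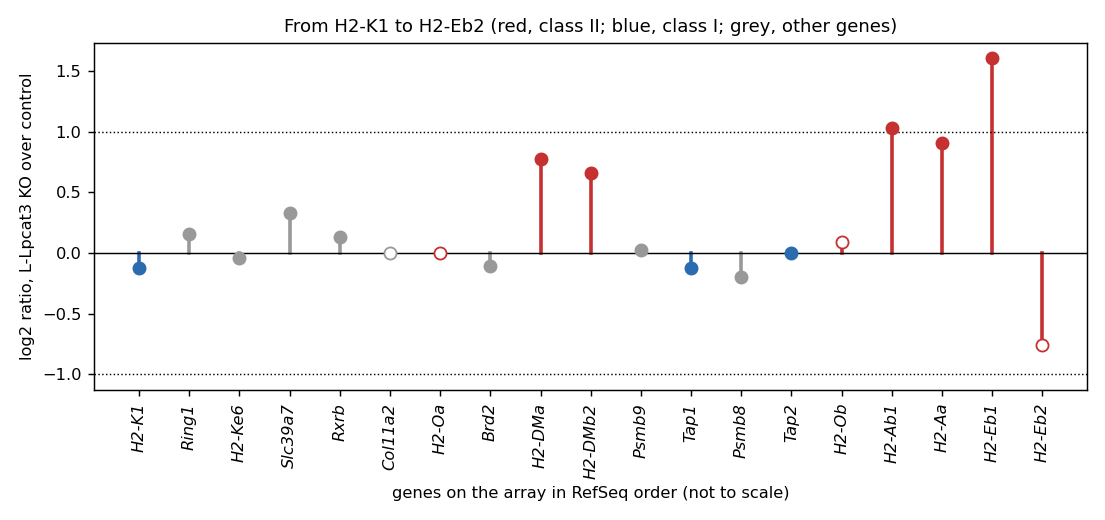
Log2 ratio of the knockout to the control pool (y axis) of the 19 genes on the array from H2-K1 to H2-Eb2, in RefSeq order and not to scale (x axis), with class II in red, class I and its transporter in blue and other genes in grey. Open circles are bounds or genes below the floor on both arrays; H2-Ab1 and H2-Eb1 pass the dotted 2-fold line, and the 4 genes from Psmb9 to Tap2 stay between -0.20 and 0.03.

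Of 46 further genes of antigen processing and presentation, 42 were matched to probe sets with 1 symbol (the others were not analysed here), and 40 were measured. Of the 40, 3 were called higher and 0 lower, beside 2.70% and 0.700% of all measured genes. The median log2 ratio was 0.05 over all 42, and 29 of the 37 measured on both arrays lay within 1.5-fold. The 3 were Wdfy4, a protein required for cross-presentation by dendritic cells (173 in the control and 405 in the L-Lpcat3 KO pool, log2 ratio 1.23), Ctss, the protease cathepsin S that degrades the invariant chain (2854 and 6148, log2 ratio 1.11), and Cd207, the lectin langerin (164 and 329, just past the call). Lgmn, a lysosomal endopeptidase that acts on antigens, stood just under the call, at 1189 in the control and 2369 in the L-Lpcat3 KO pool (1.99-fold). The brightest gene was Azgp1, a secreted class I-like protein, at 29446 and 27868 (log2 ratio -0.08). The inducible proteasome subunits Psmb8, Psmb9 and Psmb10 had log2 ratios of -0.20, 0.03 and -0.28. The interferon-regulated factors Irf1 and Irf2 gave 0.13 and -0.70, and Irf8, a factor of myeloid cells and B cells, gave 0.79.

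Markers of cells that carry class II were also among the genes called higher. In whole liver, more cells of a type and more RNA per cell cannot be told apart. Of 12 markers of Kupffer cells and macrophages, all were measured, 7 were 2-fold higher (beside 2.70% of all measured genes, as for the lists that follow) and all had ratios above 0, with a median log2 ratio of 1.21. Their summed signal was 15129 in the control and 33617 in the L-Lpcat3 KO pool. Cd5l, a protein secreted by macrophages, had 3000 and 6752 (log2 ratio 1.17), and Csf1r, the receptor of colony-stimulating factor, 3548 and 6138 (log2 ratio 0.79). Lyz2 (lysozyme) had 1237 and 4482 (log2 ratio 1.86), and C1qb, a complement chain, 1170 and 3597 (log2 ratio 1.62). The 3 probe sets of C1qb spanned log2 ratios of 0.73 to 1.62.

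Of 10 B cell markers, 9 were matched and 6 measured, and 5 were at least 2-fold higher, 3 of them as bounds. The summed signal of the 6 measured B cell markers was 860.3 in the control and 4213 in the L-Lpcat3 KO pool, of which Ighm, the IgM heavy chain, made up 518 and 2975 (log2 ratio 2.52). Ms4a1 (CD20) had 42.3 and 389, at least 4.49-fold higher, while its other probe set gave a log2 ratio of 0.30. Pax5, Cr2 and Fcer2a were below the floor in both pools. Of 11 dendritic cell markers, 10 were matched and 7 measured, and 1 was called, Itgax (CD11c) at 72.5 in the control and 261 in the L-Lpcat3 KO pool, at least 3.02-fold higher. The summed signal of the 7 measured markers was 1275 and 2074, and 6 of them had ratios above 0. Siglech went the other way, at 108 in the control and 76.9, below the floor, in the L-Lpcat3 KO pool. The brightest marker Fscn1 had 573 and 958 (log2 ratio 0.74). Its measured probe sets spanned 0.08 to 0.74, and those of Zbtb46 spanned -0.30 to 0.73. Flt3, Xcr1 and Ccr7 were below the floor in both pools. The myeloid and B cell lists thus held called markers, and several defining dendritic cell markers could not be measured.

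The remaining lists were those of endothelium, T and NK cells and hepatocytes. Of 8 endothelial markers, all were measured, 2 were 2-fold higher and 6 lay within 1.5-fold. The 2 were Lyve1 (364 and 968, log2 ratio 1.41, second probe set 0.56) and Pecam1 (96.8 and 257, log2 ratio 1.41). The Pecam1 signal was near the floor in the control pool. The brightest, Clec4g, had 2458 and 3044 (log2 ratio 0.31), and Stab2 was at -0.04. The summed signal of the 8 endothelial markers was 7783 in the control and 9885 in the L-Lpcat3 KO pool. Of 9 T and NK cell markers, 7 were matched and 2 measured, both below the floor in the control pool, with a summed signal of 73.7 in the control and 246 in the L-Lpcat3 KO pool: Cd3e at 19.3 and 115, at least 1.33-fold higher, and Nkg7 at 54.3 and 131, at least 1.52-fold higher. Cd3d, Cd3g, Cd4, Cd8a and Ncr1 were below the floor in both pools. Of 10 hepatocyte markers, 9 were matched and measured, none was called and 8 had ratios below 0. Their summed signal was 253850 in the control and 234497 in the L-Lpcat3 KO pool, with Apoa1, the brightest, at 48786 and 44841 (log2 ratio -0.12), and the lowest ratios in Tat (-0.43) and Hnf4a (-0.28). The 4 probe sets of Hnf4a spanned -0.56 to -0.28. Of all 12290 measured genes, 5994 had ratios below 0 and 6295 above 0. Bright member genes moved up with quantile normalization, for example B2m from -0.24 to -0.13 and H2-K1 from -0.13 to -0.03. The marker lists were not rescaled, so the part of scaling in the hepatocyte ratios was not tested. The part of these cell types in the class II difference was not tested.

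**Figure D5:**
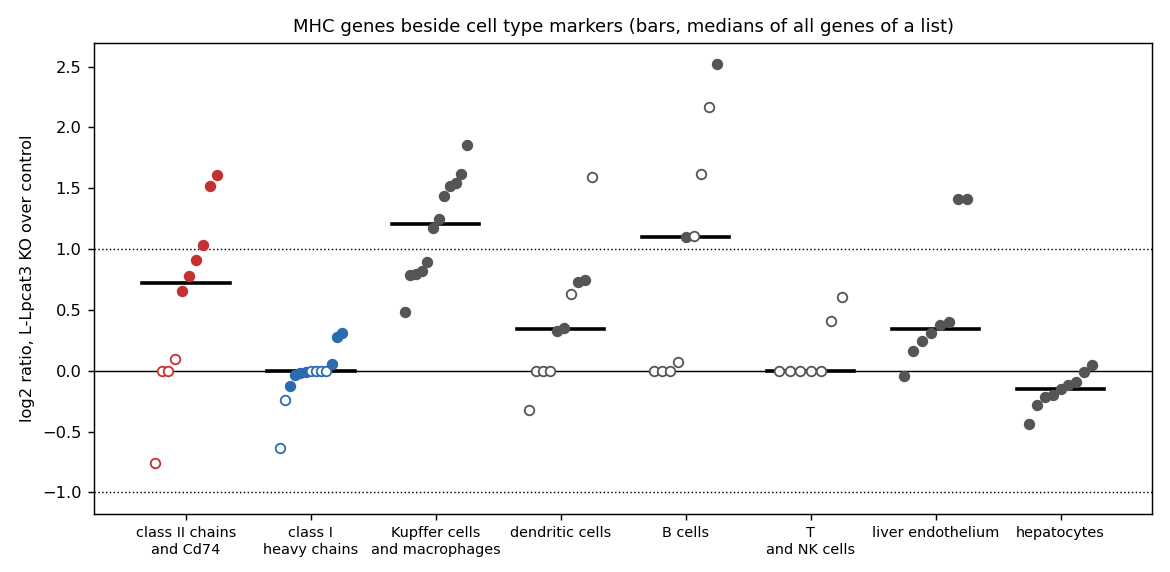
Log2 ratio of the knockout to the control pool (y axis) of class II chains with Cd74 (red), class I heavy chains (blue) and 6 lists of cell type markers (grey), 1 circle per gene, with bars at the median of all genes of a list and dotted lines at 2-fold. Open circles are bounds or genes below the floor on both arrays; the class II median of 0.72 lies below the macrophage median of 1.21 and the B cell median of 1.10, and the class I median is 0.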

How the data were processed

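Liver RNA pooled from 5 mice per genotype was hybridised to Affymetrix Mouse Genome 430 2.0 arrays, 1 per pool. The authors deposited 1 signal intensity per probe set and array, made with MAS5 and handled in GenespringGX; the 2%-trimmed mean of each array is 500, and their number limits the precision. Genes were named from GEO's platform annotation: of 45101 probe sets, 34945 carried 1 symbol and 932 several. Signals below the median of all values (86.6) were set to this floor before log2 ratios were taken. The probe set brightest on average (log2 scale) stood for its gene. A gene was measured if at or above the floor on at least 1 array (12290 genes; 10973 on both), and was called at 2-fold. No test was possible with 1 array per genotype. Every measured member gene is given by value or in a counted range. From the pathway list, those past 2-fold, the 4 largest ratios and the brightest are named, and from each cell type list the one of highest mean linear signal and the 2 largest ratios; Csf1r, Psmb8, Psmb9, Psmb10, Irf1, Irf2, Irf8, Alb and other markers named beside these were picked with their values known. The members and lists were chosen with earlier results of these data known. Alternatives varied the scaling, floor, pseudocount, probe set and fold. The scripts (pandas 2.3.3 and numpy 2.4.6, with statsmodels 0.14.6 for loess, under Python 3.11.15) were tested on simulated data. Promoter sequence is from RefSeq, build GRCm38.p6.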

Additional observations from a re-analysis of the deposited data

How the results depend on the processing

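No paired analysis was possible because each genotype had 1 pool, and none could be left out. The count of all genes at least 2-fold higher, 332, was 1132 with the floor at the 25th percentile (25.5), 88 with the floor at the 75th percentile (405), 2230 with no floor, 194 with a pseudocount, 1115 at 1.5-fold and 55 at 3-fold. The class II count of 3 was 5 with the mean of probe sets, 6 at 1.5-fold and 1 (H2-Eb1) at 3-fold, and the count over all 36 genes was the same in these settings. With no floor, 1 class I gene was called higher, H2-T24, which lies below the floor on both arrays. The count of higher genes over all 36 was then 5. The class II median, and its difference from the class I median, was 0 with the floor at the 75th percentile, where most class II genes lie at the floor in both pools. In the other settings the class II count was 2 to 4, the class II median 0.61 to 0.91 and the class I median -0.02 to 0. All these counts are of genes called higher. That no class II or class I gene was called lower depended on the floor. H2-Eb2 was at -2.52 with the floor at the 25th percentile, -3.19 with no floor and -1.18 with a pseudocount. H2-T18 was at -2.01, -2.65 and -0.88 in the same settings. An alternative added after seeing the data, in which the probe set was chosen after the floor, called 4 class II genes, with H2-DMb2 at 1.55. H2-Eb1 ranged from 1.53 to 1.63, Cd74 from 1.45 to 1.54, H2-Ab1 from 0.96 to 1.30 and H2-Aa from 0.89 to 1.49. Without probe sets that can match several transcripts, H2-Aa, H2-K1 and H2-T18 had no value, and H2-D1 was at -0.08. Of 287 values for 29 named genes, 266 moved by less than the spread between probe sets and 21 moved more. Many of the 266 could not move, so their number is no measure of stability. A changed floor leaves genes above it on both arrays as they were. The choice of probe set leaves genes with 1 probe set as they were. The sign turned in 6 values of 3 genes near 0, none of them called: H2-D1 reached 0.08, H2-Q10 0.10 and Tap2 0.01.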
